A study of Mus musculus with 15 samples.

Results

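The 9 chemokine receptors Ccr1, Ccr2, Ccr6, Ccr7, Cx3cr1, Cxcr2, Cxcr3, Cxcr4 and Cxcr6 were followed in RNA sequencing of whole mouse liver. They were chosen by name from the 37991 gene identifiers of the count table, and 7 of the 9 were counted often enough to be among the 14258 genes tested. Ccr1 and Ccr6 failed that filter on low counts and are described from their counts. The livers came from female C57BL/6 mice in 3 groups of 5 animals, with 1 library per animal. Young WT mice were wild type at the S6K1 locus (gene Rps6kb1) and 90 days old, old WT mice were wild type and 600 days old, and old KO mice were 600 days old and carried a deletion of S6K1 in the whole body. Mice of both genotypes were bred from heterozygous parents, and no young KO group was analysed here, so genotype was compared at 600 days alone. Age was compared as old WT against young WT and genotype as old KO against old WT. Old KO against young WT is given beside them, and each pair of these comparisons shares 5 libraries.

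Chemokine receptors are G protein-coupled receptors with 7 membrane-spanning helices, through which leukocytes sense gradients of secreted chemokines, adhere to vessels and enter or leave a tissue. The CC and CXC families are named after the spacing of cysteines in their ligands, and CX3CR1 binds the membrane-anchored chemokine fractalkine. In liver, CCR2 is known for drawing inflammatory monocytes from blood, CX3CR1 marks patrolling monocytes and some macrophages and cytotoxic lymphocytes, and CXCR6 holds T cells and NKT cells in the sinusoids beside CXCL16 on endothelium. CCR1 is carried by monocytes, macrophages and neutrophils, CXCR2 by neutrophils, CXCR3 by effector T cells and NK cells, CCR6 and CCR7 by lymphocytes and dendritic cells, and CXCR4 by most leukocytes.

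In the tested set, Cx3cr1 and Ccr2 were the receptors that rose with age, Cx3cr1 by 3.34-fold and Ccr2 by 2.08-fold, and no other tested receptor passed the threshold. The call of Ccr2 was close to the threshold and held in 5 of 15 fits that each left out 1 library, where that of Cx3cr1 held in all 15. No tested receptor changed between old KO and old WT. Expression is given as CPM, the counts of a gene scaled to library size with TMM factors, and a receptor was called changed at an adjusted p under 0.05 in edgeR's quasi-likelihood test over all tested genes. With age 2 of 7 tested receptors were called, against 18.8% of all tested genes, and 2 of 7 had an unadjusted p under 0.05, against 33.0%. The ranges of the age groups did not overlap for 1 of the 7, Cx3cr1, against 11.4% of tested genes. By genotype 0 of 7 were called, against 0.533%, 0 of 7 had an unadjusted p under 0.05, against 11.6%, and 0 of 7 had groups without overlap, against 3.20%. DESeq2 and limma voom also called none by genotype. Old KO against young WT gave 1 call of 7, Cx3cr1, against 23.3%, 1 of 7 with an unadjusted p under 0.05, against 36.8%, and 0 of 7 without overlap, against 13.9%. The median log2 fold change of the 7 receptors was 0.46 with age, where that of all tested genes was 0.00797, and -0.29 by genotype, where that of all tested genes was 0.000797.

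Every receptor was a rare transcript in whole liver. The 9 receptors together took 4.73 to 9.23 CPM in young WT, 7.40 to 14.3 CPM in old WT and 6.45 to 12.6 CPM in old KO livers. The young WT libraries held between 21801754 and 38065359 counts, the old WT libraries between 27063911 and 31990482 and the old KO libraries between 21984658 and 27923739, so that Ccr2, among the most often counted receptors, rested on 31 to 113 counts per library. Hepatocyte markers summed to 74850 to 141400 CPM. The targeted gene Rps6kb1 had 38.3 ± 3.14 CPM in young WT, 38.4 ± 4.21 CPM in old WT and 17.0 ± 2.23 CPM in old KO livers (SD, n = 5 each), and all 5 old KO libraries lay below all WT libraries, with reads of the gene remaining. Young WT 6, the library with the lowest total count, also had the lowest hepatocyte sum and the highest level of its group for Ccr2, Ccr7, Cx3cr1, Cxcr3 and Cxcr6. For the chemokine receptors and ligands named here, calls that changed without this library are given beside their values.

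**Figure D1:**
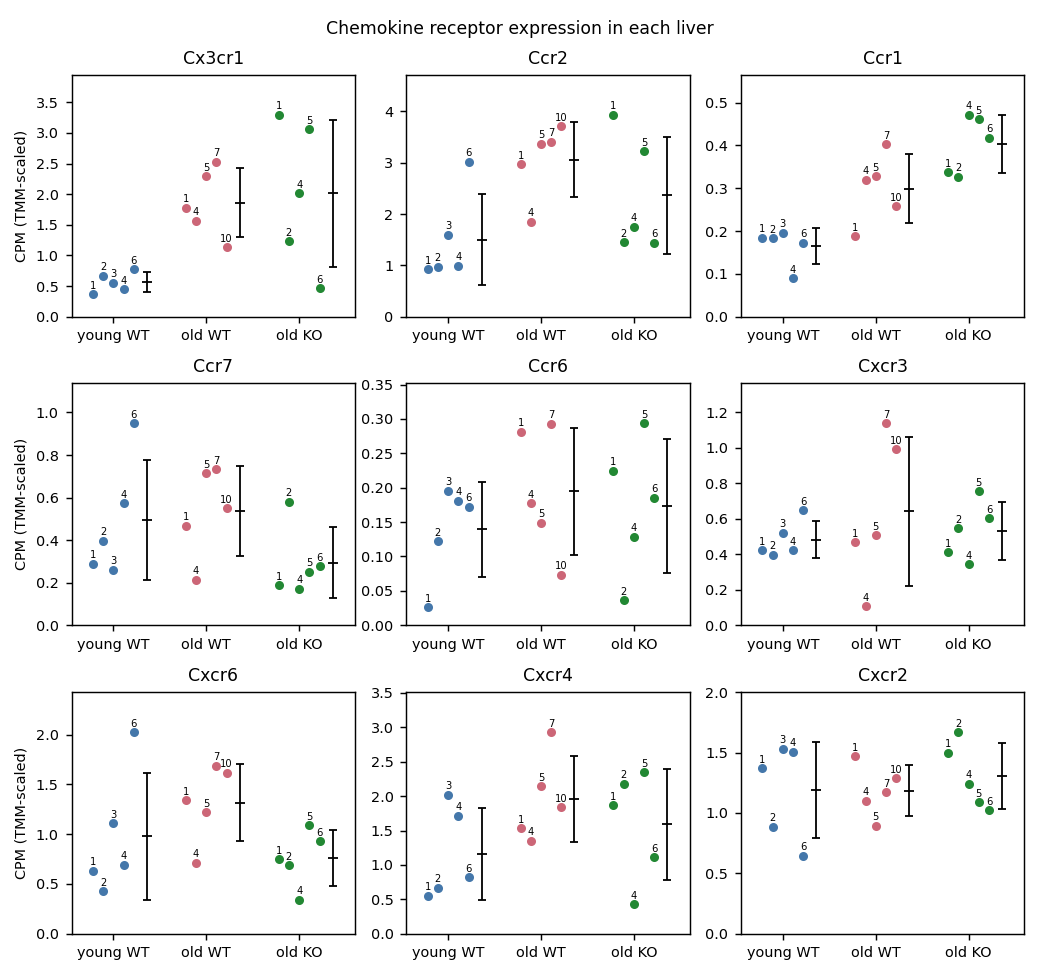
Expression of the 9 chemokine receptors in each of 15 livers, in TMM-scaled CPM on linear axes that start at 0. Points are single animals with their replicate numbers, and the bar beside each group is the mean ± SD (n = 5). Cx3cr1 in old WT (1.14 to 2.53 CPM) lay above all young WT livers (0.369 to 0.776 CPM), while the groups overlapped for Ccr2 because young WT 6 stood at 3.02 CPM.

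Cx3cr1 (ENSMUSG00000052336; NCBIM37 chr9:119957811-119977400, minus strand), the receptor of fractalkine, showed the largest age difference among the receptors tested. It was at 0.369, 0.672, 0.554, 0.452 and 0.776 CPM in young WT 1, 2, 3, 4 and 6. Old WT 1, 4, 5, 7 and 10 had 1.78, 1.56, 2.30, 2.53 and 1.14 CPM. All 5 old WT livers were above all 5 young WT livers. Old KO 1, 2, 4, 5 and 6 had 3.29, 1.23, 2.01, 3.06 and 0.464 CPM. The old KO livers therefore spread around the old WT range, with 2 above it and old KO 6 below it, at a level found in young WT. Group means were 0.564 ± 0.164, 1.86 ± 0.559 and 2.01 ± 1.20 CPM (SD, n = 5 each) in young WT, old WT and old KO. The rise with age was 1.74 on the log2 scale (SE 0.410, 95% interval 0.87 to 2.61, adjusted p 0.00891), and the fits that each left out 1 library gave 1.61 to 1.87. Between old KO and old WT the difference was 0.12 (SE 0.374, 95% interval -0.67 to 0.91, adjusted p 0.947). Old KO was above young WT by 1.86 (SE 0.412, adjusted p 0.00489). Fewer cells of a type and less RNA per cell cannot be told apart in whole tissue, for this receptor or for those that follow.

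The ligand of Cx3cr1, Cx3cl1 (fractalkine), which endothelial and epithelial cells display on their surface, rose with age as well. The mean was 0.607 ± 0.104 CPM for young WT, 1.21 ± 0.551 CPM for old WT and 0.982 ± 0.277 CPM in old KO livers (SD, n = 5 each). The rise in old WT was 0.99 on the log2 scale (SE 0.298, adjusted p 0.0301), with 4 of 5 old WT livers above all young WT livers, and the call was lost without young WT 1, 3 or 4 or old WT 5 or 7 (0.81 to 1.01, adjusted p 0.0514 to 0.0881). The difference by genotype was -0.30 (SE 0.291, adjusted p 0.764).

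Ccr2 (ENSMUSG00000049103; NCBIM37 chr9:124016689-124028296, plus strand), the receptor of CCL2 on inflammatory monocytes, was the other receptor that rose with age. Young WT 1, 2, 3, 4 and 6 had 0.921, 0.977, 1.60, 0.994 and 3.02 CPM of it. It reached 2.97, 1.85, 3.37, 3.41 and 3.71 CPM in old WT 1, 4, 5, 7 and 10. Young WT 6 was within the old WT range, and the other young WT livers were below it. Old KO 1, 2, 4, 5 and 6 had 3.93, 1.45, 1.76, 3.23 and 1.44 CPM, so 1 old KO liver was above the whole old WT range and 3 were below it. Group means were 1.5 ± 0.891, 3.06 ± 0.728 and 2.36 ± 1.15 CPM (SD, n = 5 each). With age the log2 fold change was 1.06 (SE 0.357, 95% interval 0.30 to 1.82, adjusted p 0.0485), close to the threshold. Without young WT 6 it was 1.46 (adjusted p 0.0058), and the call was lost without any 1 of young WT 1, 2, 3 and 4, old WT 1, 5, 7 and 10, and old KO 4 and 5 (0.92 to 1.10, adjusted p 0.0526 to 0.12). By genotype the difference was -0.37 (SE 0.349, 95% interval -1.11 to 0.37, adjusted p 0.754). Old KO against young WT gave 0.69 (SE 0.363, adjusted p 0.182), and 1.08 (adjusted p 0.0248) without young WT 6.

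**Figure D2:**
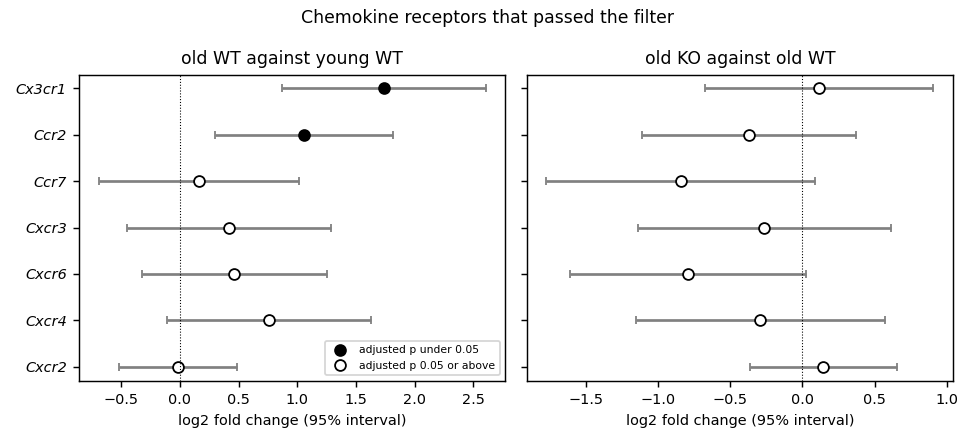
Log2 fold changes of the 7 tested receptors with age (left) and by genotype (right), with 95% intervals from edgeR over 15 libraries (5 per group). Filled points have an adjusted p under 0.05, which holds for Cx3cr1 (1.74) and Ccr2 (1.06) with age and for no receptor by genotype.

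Ccr2 lies in a cluster of chemokine receptor genes on chromosome 9, among them Ccr9, Cxcr6, Xcr1, Ccr1, Ccr1l1 and Ccr3. Of the 6439 windows of 50 bases in Ccr2 transcripts, 120 (1.86%) occur in another gene, and a read from such a window cannot be placed in 1 gene.

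Among the CCR2 ligands, Ccl2 (MCP-1), the main monocyte attractant, rose with age by 1.71 on the log2 scale (SE 0.511, adjusted p 0.0298). Means were 0.410 ± 0.498 CPM for young WT, 1.24 ± 0.234 CPM for old WT and 0.737 ± 0.394 CPM for old KO livers (SD, n = 5 each). Young WT 6 was again the highest of its group, at 1.29 CPM, inside the old WT range of 1.10 to 1.64 CPM. Without it the age difference was 2.68 (adjusted p 0.000428) and Ccl2 was also higher in old KO than in young WT, by 1.92 (adjusted p 0.00301), against 0.95 (adjusted p 0.215) with it. The age call was lost without any 1 of young WT 1, 2, 3 and 4 and old WT 1 and 5 (1.46 to 1.69, adjusted p 0.055 to 0.0791). Old KO lay below old WT by a log2 difference of -0.76 (SE 0.484, adjusted p 0.579), with 4 of 5 old KO livers below all old WT livers. The other CCR2 ligands Ccl7, Ccl8 and Ccl12 had totals of 8, 5 and 4 counts over the young WT group and 25, 26 and 7 over old WT, and were not tested.

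Cx3cr1 and Ccr2 varied together. Over the 15 libraries their log2 CPM correlated with Pearson's r 0.774 (Spearman's rho 0.793), and the deviations from the group means with r 0.631. The libraries share the tissue and the group structure, so these values are descriptions. The 300 bases around the start of each gene are shown because the pair moved together, taken from RefSeq on GRCm38.p6, a later build than that of the counts, and written along the gene's strand. Capitals mark TGTGGT on either strand, a sequence that RUNX factors of blood cells are known to bind.
Cx3cr1 (GRCm38.p6 chr9:120068247-120068546, minus strand): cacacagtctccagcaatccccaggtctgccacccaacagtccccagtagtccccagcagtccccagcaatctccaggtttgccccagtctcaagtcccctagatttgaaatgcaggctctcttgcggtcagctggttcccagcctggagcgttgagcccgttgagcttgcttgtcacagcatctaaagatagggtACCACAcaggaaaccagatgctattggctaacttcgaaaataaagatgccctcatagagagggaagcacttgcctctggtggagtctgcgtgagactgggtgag
Ccr2 (GRCm38.p6 chr9:124101933-124102232, plus strand): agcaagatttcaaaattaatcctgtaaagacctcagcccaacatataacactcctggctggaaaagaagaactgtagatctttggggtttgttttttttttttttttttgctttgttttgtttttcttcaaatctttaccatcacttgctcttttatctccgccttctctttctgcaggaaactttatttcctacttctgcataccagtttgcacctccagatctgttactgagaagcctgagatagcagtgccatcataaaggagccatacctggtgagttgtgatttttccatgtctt
TGTGGT occurs in the Cx3cr1 window and not in the Ccr2 window. Of the 8 receptors with a window in the table, 5 held it in at least 1 window (Ccr1, Ccr6, Cx3cr1, Cxcr3 and Cxcr6), and 16.8% of all 32851 windows of this length did. Receptors were counted over all their windows, and Ccr6 had more than 1, whereas the shares of all windows are per window. GGAA occurred in all 8 and in 96.0% of all windows, TATAAA in Cxcr4 alone and in 13.6%, CCAAT in 2 of 8 and in 37.4%, and CACCC in 3 of 8 and in 57.5%, each on either strand. These motifs were chosen after the expression values were known, and a match is no evidence of binding.

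Ccr1 (ENSMUSG00000025804; NCBIM37 chr9:123876959-123883525, minus strand), the receptor of CCL3, CCL5, CCL6 and CCL9, was counted 3 to 11 times per library. Young WT 1, 2, 3, 4 and 6 had 7, 6, 6, 3 and 4 counts, or 0.184, 0.183, 0.196, 0.0904 and 0.172 CPM. Old WT 1, 4, 5, 7 and 10 had 6, 9, 11, 11 and 7 counts, or 0.187, 0.320, 0.328, 0.403 and 0.257 CPM. In old KO 1, 2, 4, 5 and 6 there were 9, 9, 11, 11 and 9 counts, or 0.337, 0.327, 0.471, 0.461 and 0.418 CPM. The old KO livers were all above the young WT livers, and the young WT and old WT ranges overlapped in old WT 1 alone. Exact 2-sided permutation tests of log2(CPM + 0.1) gave p = 0.0159 for age, p = 0.0476 for genotype and p = 0.00794 for old KO against young WT, the last being the smallest that 252 assignments allow. Mean CPM was 1.81 times as high in old WT as in young WT, 1.35 times as high in old KO as in old WT and 2.44 times as high in old KO as in young WT. Those p-values are unadjusted. In an edgeR fit with no filter on low counts the adjusted p was 0.151, 0.705 and 0.0211 in the same order, so only old KO against young WT passed the threshold there (log2 fold change 1.25).

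Among the CCR1 ligands, Ccl9 and Ccl6 passed the threshold by genotype in opposite directions. Both genes lie on the same chromosome as the targeted gene Rps6kb1, and the part of DNA linked to the deletion in these differences was not tested. Ccl9, a macrophage chemokine, rose with age and was higher again in old KO livers, at 36.6 ± 4.03, 52.7 ± 7.87 and 124 ± 25.6 CPM (SD, n = 5 each) in young WT, old WT and old KO, with no overlap between any groups. The log2 fold change was 0.53 with age (SE 0.141, adjusted p 0.0177) and 1.23 by genotype (SE 0.142, adjusted p 0.000486). Ccl6, another chemokine of macrophages, fell in old KO livers to 4.11 ± 1.10 CPM from 10.8 ± 3.09 CPM in old WT (SD, n = 5 each), a log2 difference of -1.38 (SE 0.225, adjusted p 0.0194), with all 5 old KO livers below all old WT livers. This call was lost without old WT 1 or 4 or old KO 4 or 6 (-1.39 to -1.29, adjusted p 0.0515 to 0.0590), and that of Ccl9 with age without young WT 1 (0.47, adjusted p 0.0511). Ccl5 (RANTES), a product of T cells and NK cells, rose with age by 2.01 (SE 0.377, adjusted p 0.00262), from 0.955 ± 0.429 to 3.81 ± 1.69 CPM (SD, n = 5 each). It stood at 1.56 ± 0.685 CPM in old KO livers (SD, n = 5), a difference from old WT of -1.28 (SE 0.366, adjusted p 0.144). Ccl3, a chemokine of activated macrophages and lymphocytes, had 16, 68 and 26 counts over the young WT, old WT and old KO groups and failed the filter on low counts. Its mean CPM was 4.79 times as high in old WT as in young WT, without overlap, and 0.46 times as high in old KO as in old WT, with overlap.

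Cxcr4 (ENSMUSG00000045382; NCBIM37 chr1:130484776-130488870, minus strand), the CXCL12 receptor of most leukocytes and of blood stem cells, had the highest level per kilobase of exon in each group. It was at 0.553, 0.672, 2.02, 1.72 and 0.819 CPM in young WT 1, 2, 3, 4 and 6. The old WT livers 1, 4, 5, 7 and 10 had 1.53, 1.35, 2.15, 2.93 and 1.84 CPM. The old KO livers 1, 2, 4, 5 and 6 had 1.87, 2.18, 0.428, 2.35 and 1.11 CPM. Young WT 3 and 4 lay within the old WT range, and old KO 4 was the lowest of all 15 livers. The log2 fold change was 0.76 with age (SE 0.411, 95% interval -0.11 to 1.63, adjusted p 0.211) and -0.29 by genotype (SE 0.408, 95% interval -1.16 to 0.57, adjusted p 0.847). Its ligand Cxcl12, which keeps leukocytes in tissue and bone marrow, was the most abundant of the ligands at 412 ± 37.3, 422 ± 13 and 461 ± 20.8 CPM (SD, n = 5 each) in young WT, old WT and old KO, with differences of 0.03 with age (adjusted p 0.779) and 0.13 by genotype (adjusted p 0.534).

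Cxcr6 (ENSMUSG00000048521; NCBIM37 chr9:123715595-123720872, plus strand), which holds T and NKT cells in the sinusoids, was at 0.632, 0.427, 1.11, 0.693 and 2.03 CPM in young WT 1, 2, 3, 4 and 6. Cxcr6 was at 1.34, 0.711, 1.22, 1.69 and 1.62 CPM in old WT 1, 4, 5, 7 and 10. Levels of 0.749, 0.690, 0.343, 1.09 and 0.928 CPM were measured in old KO 1, 2, 4, 5 and 6. The highest liver of all was young WT 6, and 2 old KO livers lay below all old WT livers. The difference by genotype was -0.79 (SE 0.386, 95% interval -1.61 to 0.03, adjusted p 0.450) and that with age 0.46 (SE 0.373, 95% interval -0.32 to 1.25, adjusted p 0.408). Without young WT 6 the age difference was 0.89 (adjusted p 0.0655), and that of old KO against young WT went from -0.33 (adjusted p 0.584) to 0.092 (adjusted p 0.870). The gene lies inside Fyco1 on the opposite strand, and none of its 1893 exonic bases is exonic in Fyco1.

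Cxcl16, the ligand of CXCR6, which endothelium and macrophages carry on their surface, rose with age by 0.76 on the log2 scale (SE 0.121, adjusted p 0.000984). The level was 5.52 ± 1.03 CPM for young WT and 9.34 ± 0.554 CPM for old WT, without overlap, and 7.93 ± 0.766 CPM for old KO livers (SD, n = 5 each). Old KO was above young WT by 0.53 (SE 0.122, adjusted p 0.00605) and differed from old WT by -0.23 (SE 0.120, adjusted p 0.473).

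Cxcr3 (ENSMUSG00000050232; NCBIM37 chrX:98926874-98929608, minus strand), carried by effector T cells and NK cells, was at 0.421, 0.397, 0.521, 0.422 and 0.647 CPM in young WT 1, 2, 3, 4 and 6. Cxcr3 reached 0.469, 0.107, 0.507, 1.14 and 0.992 CPM in old WT 1, 4, 5, 7 and 10. For old KO 1, 2, 4, 5 and 6 the levels were 0.412, 0.545, 0.343, 0.755 and 0.603 CPM. Old WT livers included both the lowest and the highest of all 15, old WT 4 with 3 counts and old WT 7 with 31. The log2 fold change was 0.42 with age (SE 0.410, 95% interval -0.45 to 1.28, adjusted p 0.505) and -0.26 by genotype (SE 0.415, 95% interval -1.14 to 0.62, adjusted p 0.873). Of its ligands, which interferon induces, Cxcl10 rose with age from 1.94 ± 1.32 to 5.05 ± 1.80 CPM (SD, n = 5 each), by 1.41 on the log2 scale (SE 0.356, adjusted p 0.0129), and was at 2.49 ± 0.912 CPM in old KO livers (difference from old WT -1.02, SE 0.353, adjusted p 0.241). Without young WT 6 Cxcl10 was also higher in old KO than in young WT, by 0.87 (adjusted p 0.0397), against 0.39 (adjusted p 0.469) with it. Cxcl9 differed by 1.40 with age (adjusted p 0.0771), past the threshold without young WT 6 (2.17, adjusted p 0.00501) or old WT 7 (1.63, adjusted p 0.0419), and by -1.18 by genotype (adjusted p 0.403), with single livers between 4.12 and 70.2 CPM, and Cxcl11 by 0.36 (adjusted p 0.236) and 0.01 (adjusted p 0.994).

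Ccr7 (ENSMUSG00000037944; NCBIM37 chr11:99005510-99016391, minus strand) directs naive T cells and mature dendritic cells to lymph nodes. It was at 0.290, 0.397, 0.261, 0.573 and 0.949 CPM in young WT 1, 2, 3, 4 and 6. Old WT 1, 4, 5, 7 and 10 had 0.469, 0.213, 0.716, 0.733 and 0.551 CPM. Old KO 1, 2, 4, 5 and 6 had 0.187, 0.581, 0.171, 0.251 and 0.279 CPM. Apart from old KO 2, the old KO livers were at 4 to 6 counts each. Ccr7 lies on the same chromosome as the targeted gene Rps6kb1, and the part of DNA linked to the deletion was not tested. By genotype the difference was -0.84 (SE 0.440, 95% interval -1.77 to 0.09, adjusted p 0.484), the most negative of the 7 tested receptors, and with age it was 0.16 (SE 0.404, 95% interval -0.69 to 1.02, adjusted p 0.810), or 0.50 (adjusted p 0.378) without young WT 6. Its ligand Ccl19 had 10, 24 and 20 counts over the young WT, old WT and old KO groups and was not tested, and Ccl21a had none in any library. Whether reads of Ccl21a can be placed in 1 gene was not examined.

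Ccr6 (ENSMUSG00000040899; NCBIM37 chr17:8429077-8449992, plus strand), found on B cells and interleukin-17-producing T cells, was close to the limit of detection. Young WT 1, 2, 3, 4 and 6 had 1, 4, 6, 6 and 4 counts, or 0.0263, 0.122, 0.196, 0.181 and 0.172 CPM. Old WT 1, 4, 5, 7 and 10 had 9, 5, 5, 8 and 2 counts, or 0.281, 0.178, 0.149, 0.293 and 0.0735 CPM. Old KO 1, 2, 4, 5 and 6 had 6, 1, 3, 7 and 4 counts, or 0.225, 0.0363, 0.129, 0.293 and 0.186 CPM. The groups overlapped throughout, and exact 2-sided permutation tests of log2(CPM + 0.1) gave p = 0.373 for age, p = 0.706 for genotype and p = 0.603 for old KO against young WT. Ccl20, its chemokine ligand, had 1 count in 1 old KO library and none elsewhere.

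Cxcr2 (ENSMUSG00000026180; NCBIM37 chr1:74200563-74207812, plus strand), the neutrophil receptor, had means of 1.19 ± 0.399, 1.18 ± 0.213 and 1.30 ± 0.275 CPM (SD, n = 5 each) in young WT, old WT and old KO. It was at 1.37, 0.885, 1.53, 1.51 and 0.647 CPM in young WT 1, 2, 3, 4 and 6. Old WT 1, 4, 5, 7 and 10 had 1.47, 1.10, 0.895, 1.17 and 1.29 CPM. The old KO livers 1, 2, 4, 5 and 6 had 1.5, 1.67, 1.24, 1.09 and 1.02 CPM. All old WT livers lay within the young WT range, and young WT 6 was the lowest of all 15. The log2 fold change was -0.02 with age (SE 0.238, 95% interval -0.52 to 0.49, adjusted p 0.971) and 0.15 by genotype (SE 0.241, 95% interval -0.36 to 0.66, adjusted p 0.879). Of the 50-base windows of Cxcr2 transcripts, 2.64% occur in another gene.

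Among the CXCR2 ligands, Cxcl1 and Ppbp rose with age. Cxcl1 (KC), a neutrophil attractant, went from 0.631 ± 0.322 to 3.50 ± 1.10 CPM (SD, n = 5 each) without overlap, by 2.50 on the log2 scale (SE 0.439, adjusted p 0.00176), and old KO was above young WT by 2.65 (SE 0.441, adjusted p 0.00089). Ppbp, a chemokine of platelets, rose by 1.64 (SE 0.427, adjusted p 0.0152), from 0.209 ± 0.120 to 0.665 ± 0.309 CPM (SD, n = 5 each). By genotype Cxcl1 differed by 0.15 (adjusted p 0.933) and Ppbp by -0.74 (adjusted p 0.511). Cxcl2 and Cxcl5 had 18 to 34 counts over each group and were not tested, and Cxcl3 had none in any library.

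**Figure D3:**
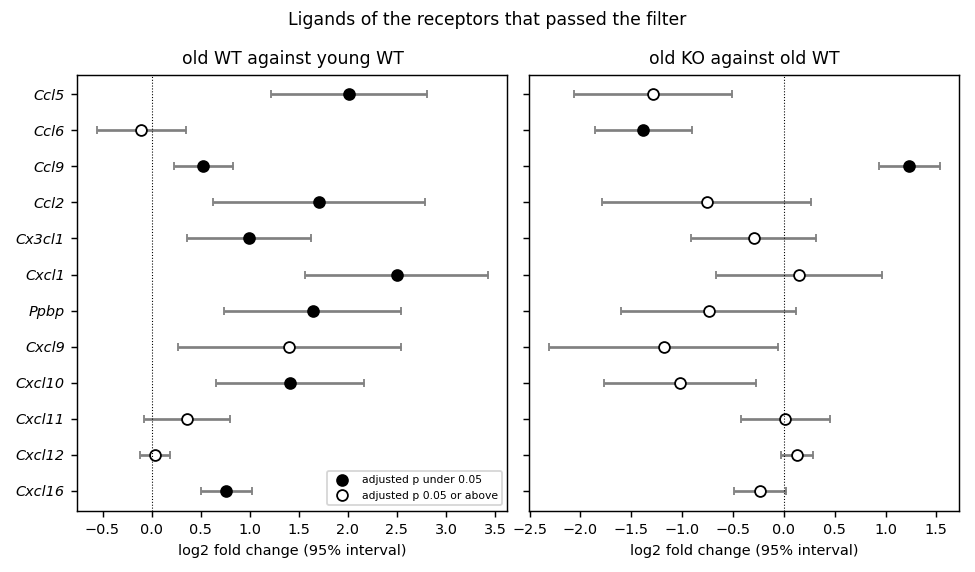
Log2 fold changes of the 12 tested ligands of the receptors with age (left) and by genotype (right), with 95% intervals from edgeR over 15 libraries. Filled points have an adjusted p under 0.05. With age 8 ligands rose, and by genotype Ccl9 rose (1.23) and Ccl6 fell (-1.38).

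Over the whole list, 12 of 22 ligands were tested, 8 rose and none fell with age, and their median log2 fold change was 1.20. Without young WT 6, 13 ligands passed the filter and 10 rose, with Ccl3 and Cxcl9 added. By genotype 1 rose and 1 fell, with a median of -0.52. In old KO against young WT 3 rose (Ccl9 by 1.76, Cxcl1 by 2.65 and Cxcl16 by 0.53) and 1 fell (Ccl6, -1.49). The shares of all tested genes called in these 3 comparisons were 18.8%, 0.533% and 23.3%. The ligand and receptor lists were compiled with earlier results of these livers known.

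Per kilobase of exon, mean levels in old WT ran from Cxcr4 (1.08 CPM per kb) over Cxcr6 (0.695), Cx3cr1 (0.499), Ccr2 (0.479), Cxcr2 (0.390), Cxcr3 (0.371) and Ccr7 (0.271) to Ccr1 (0.106) and Ccr6 (0.103). Neighbours in this order overlapped in their ranges, in each of the 3 groups. In young WT the level of Cx3cr1 per kilobase was 0.151, the seventh of the 9, and in old KO it was 0.540, the second. Measured by the longest transcript, Ccr2 moved up in all 3 groups, to just before Cxcr3 in young WT, before Cx3cr1 in old WT and before Cxcr2 in old KO, and Ccr6 came before Ccr1 in old WT.

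Of the 16 other chemokine receptors listed, 9 were tested. With age 1 rose and 1 fell, where 18.8% of all tested genes were called. Both were atypical receptors that take up chemokines without G protein signalling. Ackr2, a scavenger of inflammatory CC chemokines, was at 3.66, 6.90, 5.48, 6.66 and 3.88 CPM in young WT 1, 2, 3, 4 and 6. It was at 2.62, 2.13, 2.21, 2.86 and 2.61 CPM in old WT 1, 4, 5, 7 and 10. All old WT livers were below all young WT livers, and the log2 fold change was -1.10 (SE 0.205, adjusted p 0.00255). Old KO livers, at 2.27 ± 0.567 CPM (SD, n = 5), were below young WT by a log2 difference of -1.23 (SE 0.208, adjusted p 0.000967) and differed from old WT by -0.13 (SE 0.213, adjusted p 0.877). Ackr1, the Duffy antigen of venules and red blood cells, rose with age from 0.550 ± 0.214 to 1.03 ± 0.397 CPM (SD, n = 5 each), by 0.90 (SE 0.296, adjusted p 0.0448), a call that was lost in 10 of 15 fits with 1 library left out (0.65 to 0.97, adjusted p 0.0517 to 0.142), namely without young WT 1, 2, 3 or 6, old WT 1, 4, 5 or 7, or old KO 2 or 4. None of the 9 passed the threshold by genotype in edgeR or DESeq2. An unadjusted p under 0.05 was found for 2, against 11.6% of all tested genes, among them Ccrl2 (-0.72, SE 0.215, adjusted p 0.162). Of the cluster neighbours on chromosome 9, Xcr1 of cross-presenting dendritic cells differed by 0.86 with age (SE 0.293, adjusted p 0.0521; called when young WT 6, old WT 4 or old KO 5 was left out, at 0.86 to 1.11, adjusted p 0.0118 to 0.0499) and by -0.44 by genotype (SE 0.291, adjusted p 0.603). Ccr9 had 65, 55 and 34 counts over young WT, old WT and old KO, Ccr3 had 8, 4 and 10, and Ccr1l1 had 5, 4 and 4.

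Downstream of the receptors, 23 of 24 signalling genes were tested. With age 6 rose and none fell. They were the G protein subunits Gnai2 (0.30) and Gnb1 (0.27), the phospholipase Plcb3 (0.36), and the regulators of Rac and cell movement Elmo1 (0.91), Rac2 (0.76) and Prex1 (0.78), each as a log2 fold change. By genotype Rac2, the Rac of blood cells, fell from 9.95 to 5.59 mean CPM (log2 fold change -0.83, SE 0.175, adjusted p 0.0459), and none rose. In old KO against young WT 5 rose (Gnai3, Gnb1, Gnb2, Plcb3 and Prex1) and 2 fell (Grk3 and Rgs1). The median log2 fold change of the list was 0.30 with age and -0.23 by genotype. Among all tested genes 18.8% were called with age, 0.533% by genotype and 23.3% in old KO against young WT.

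Marker genes of leukocytes were counted beside the receptors. For comparison, 18.8% of all tested genes were called with age and 0.533% by genotype, where 11.6% had an unadjusted p under 0.05. Of 12 pan-leukocyte genes, all tested, 4 rose with age (Coro1a, Cd52, Cd48 and Ptpn6; median of the list 0.52). None passed by genotype, where 12 of 12 were lower (median -0.80), 11 had an unadjusted p under 0.05 and DESeq2 called 5 lower. Their summed level was 151 to 226 CPM in young WT, 191 to 235 CPM in old WT and 144 to 189 CPM in old KO livers. NK and cytotoxic markers gave 4 rises with age among 7 tested of 12 (Klrd1, Nkg7, Gzmb and Prf1), T cell markers 2 among 12 tested of 13 (Cd3e and Cd8a), B cell markers 2 of 9 (Ms4a1 and Fcrla), and monocyte markers 3 among 9 tested of 10 (Ly6c2, Chil3 and F13a1). By genotype edgeR called none in these 4 lists, where 2 NK, 2 T cell, 2 B cell and 5 monocyte markers had an unadjusted p under 0.05 and DESeq2 called 1 monocyte marker. In direction 7 of 7 NK, 12 of 12 T cell, 8 of 9 B cell and 8 of 9 monocyte markers were lower in old KO. The medians were -0.61, -0.68, -0.57 and -0.66. Neutrophil markers had 0 calls among 4 tested of 12 in each comparison by edgeR and by DESeq2, with 1 gene at an unadjusted p under 0.05 by genotype and 0 otherwise.

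Kupffer cell and macrophage markers differed most by genotype, with 13 of 13 lower in old KO than in old WT (median -1.18) and summed levels of 163 to 244 CPM against 284 to 681 CPM. Of the 13, 8 were called lower, against 0.533% of all tested genes called, and all 13 had an unadjusted p under 0.05. With age 1 of 13, Cd163, was called lower and none was called higher, whereas DESeq2 called 3 higher. In direction 11 of the 13 were higher with age and 2 lower (median 0.41). No marker of these lists was at 0 in every library. Of the defining markers, Ptprc (CD45 of all leukocytes) was at 5.28 to 22.4 CPM, Clec4f (Kupffer cells) at 30.4 to 135 CPM, Cd3e (T cells) at 0.305 to 1.32 CPM, S100a8 (neutrophils) at 0.232 to 3.04 CPM, Ly6c2 (monocytes) at 0.0611 to 0.524 CPM and Ncr1 (NK cells) at 0.0367 to 0.469 CPM over the 15 livers. The part of these cell types in the receptor values was not tested.

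**Figure D4:**
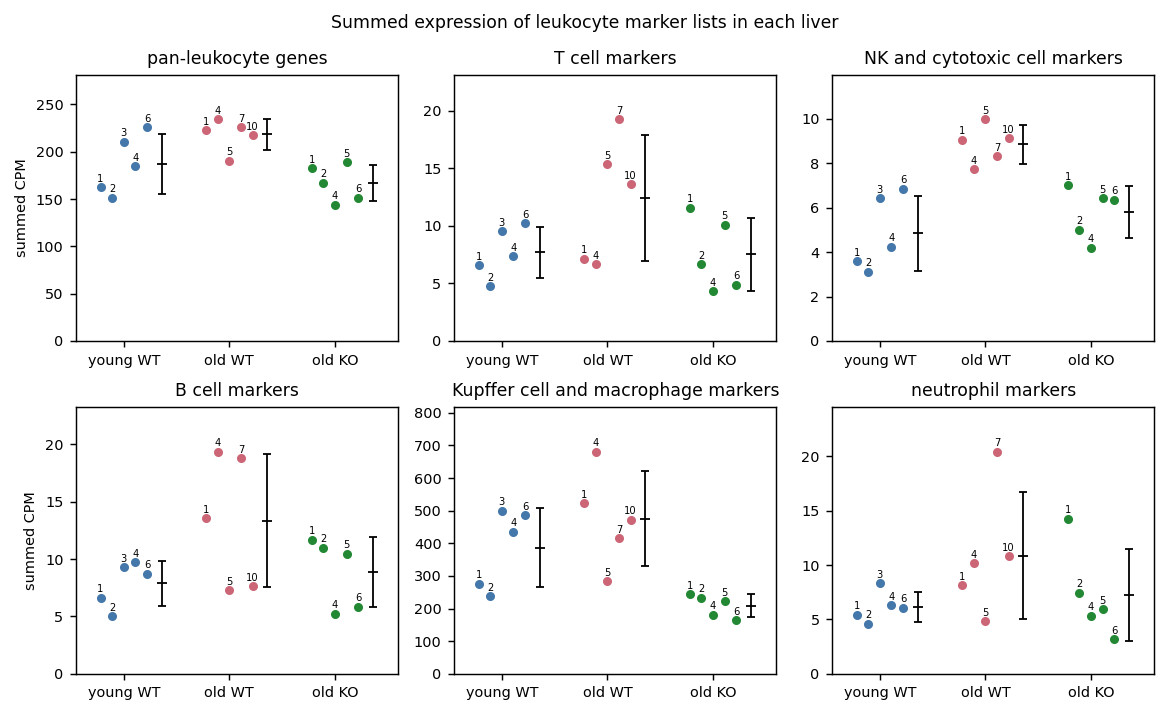
Summed CPM of 6 leukocyte marker lists in each of 15 livers, on linear axes that start at 0. Points are single animals with their replicate numbers, and the bar beside each group is the mean ± SD (n = 5). NK and cytotoxic markers were at 7.72 to 9.99 CPM in old WT, above young WT (3.11 to 6.86 CPM) and old KO livers (4.20 to 7.0 CPM). Kupffer cell markers in old KO (163 to 244 CPM) lay below old WT (284 to 681 CPM) and overlapped young WT (237 to 499 CPM).

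Set against the summed pan-leukocyte genes of the same liver, Cx3cr1 and Ccr1 stood apart between groups. Per 100 CPM of pan-leukocyte genes, Cx3cr1 was at 0.226 to 0.443 CPM in young WT, 0.524 to 1.20 CPM in old WT and 0.307 to 1.80 CPM in old KO livers, again with no overlap between young WT and old WT. Ccr1 was at 0.0490 to 0.121, 0.0843 to 0.178 and 0.184 to 0.327 CPM on the same scale, and all old KO livers were above all WT livers. Without this ratio, Ccr1 in old KO (0.327 to 0.471 CPM) overlapped old WT (0.187 to 0.403 CPM). The pan-leukocyte sum was itself lower in all old KO livers (144 to 189 CPM) than in old WT (191 to 235 CPM), which raises each ratio in old KO. Ccr2 was at 0.538 to 1.34, 0.788 to 1.77 and 0.869 to 2.15 CPM. The other receptors overlapped in each pair of groups on this scale, which is a ratio to genes that Kupffer cells also express and was not tested. The share of all tested genes without overlap on it was not counted.

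**Figure D5:**
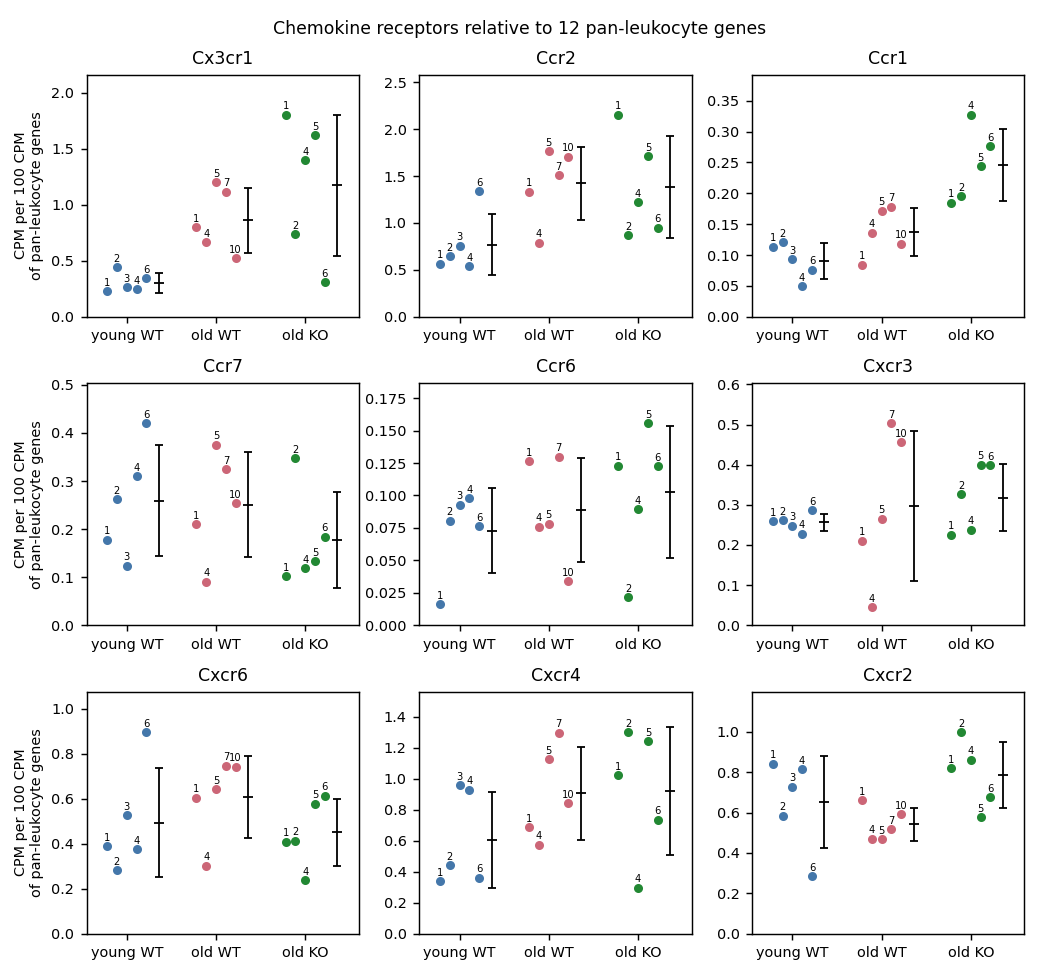
Expression of the 9 receptors in CPM per 100 CPM of the summed 12 pan-leukocyte genes of the same liver, on linear axes that start at 0. Points are single animals with their replicate numbers, and the bar beside each group is the mean ± SD (n = 5). Ccr1 in old KO (0.184 to 0.327) lay above every WT liver (up to 0.178), on 9 to 11 counts per library. The pan-leukocyte sum was itself lower in old KO than in old WT livers.

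The receptors also differed in which other genes they followed over the 15 livers, given here as Pearson's r of log2 CPM without a test. Ccr2 was most like Traf1 (0.926), Gzmb (0.914) and Cd52 (0.893), and it correlated with the summed NK and cytotoxic markers at r 0.84 and with T cell markers at r 0.741. Cx3cr1 was most like Casp12 (0.940), Efemp1 (0.935) and Ly6e (0.929), and its r with NK and cytotoxic markers was 0.528 and with Kupffer cell markers -0.064. Cxcr6 was most like Cd46 (0.841), Pyhin1 (0.837) and Ubd (0.832), with r 0.769 against the pan-leukocyte genes and 0.776 against NK and cytotoxic markers. Cxcr4 was most like Sept1 (0.856), Trbc1 (0.846) and Sh3bgrl3 (0.838), and Ccr7 like Lat (0.850), Nr4a2 (0.833) and Ccdc53 (0.819). The genes most like Cxcr3 were Ttyh1 (0.875), Kcnip4 (0.758) and Rdh14 (0.752), and those most like Cxcr2 were A930005H10Rik (0.844), Slc25a43 (0.818) and A730081D07Rik (0.756). Cxcr2 had an r between -0.10 and 0.37 with the pan-leukocyte, T cell, NK, B cell, Kupffer cell and neutrophil sums, the last being 0.366. With the dendritic cell sum its r was -0.285. The monocyte sum was left out, as its Fn1, which hepatocytes also express, had a mean of 1912 CPM in old WT, where Ly6c2 had 0.361 CPM. Each of these values was the highest among the 14258 tested genes or was read from many lists, and all points share the tissue and the group structure. Among the receptors themselves, Cxcr6 correlated with Ccr2 at r 0.674, with Ccr7 at 0.619 and with Cxcr3 at 0.617, while Cx3cr1 and Cxcr6 were at 0.149.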

How the data were processed

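RNA was taken with Trizol from flash-frozen livers, and stranded poly(A) libraries were sequenced with single-end 50-base reads. The submitters' processing notes name CASAVA, TopHat2 2.0.11 and DESeq2 1.18.1, and the authors mapped to mm9 and counted with HTSeq. What they deposited are raw counts of reads per gene for 15 libraries, neither normalized nor pooled. The annotation and strand setting of the counting are not given in the sources used here, so overlapping genes and near-identical family members are uncertain. Groups came from the sample titles, and each column matched 1 title.

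Positions are from GENCODE M1 (NCBIM37, identical to mm9; 37205 of 37991 identifiers). Of 210 list entries 201 matched by symbol, 8 by synonym, among them Ackr1, Ackr2 and Chil3, and 1 (Tf) not. Counts were scaled by TMM and genes filtered by filterByExpr in edgeR 4.0.16 (R 4.3.3). The quasi-likelihood test was fitted to all 15 libraries (common biological coefficient of variation 0.189), with Benjamini-Hochberg adjustment over 14258 genes and a threshold of 0.05. All adjusted p-values of genes are from edgeR unless another tool is named, and SE is that of the log2 fold change. Log2 CPM for correlations used a prior count of 2. Ccr1 and Ccr6, which were below the filter, were tested by exact permutation of log2(CPM + 0.1), and other genes below it had no such test. The test was also tried on counts simulated with the gene means of these libraries and the common spread of the main fit. DESeq2 1.42.0, limma voom (3.58.1), other scalings and filters, a replicate block and leave-one-out fits were alternatives. Poly(A) counts at this depth leave rare receptors with large counting error. All 30 replicate pairs within groups differed beyond sampling noise.

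The rule for named genes takes the 9 receptors, each ligand and other chemokine receptor that passed the threshold, 1 defining marker per leukocyte list, receptors of the chromosome 9 cluster and the 3 genes most correlated with each tested receptor. Other genes were named after their values were seen. A receptor and a marker under this rule, and 1 alternative for Ccr2 added after the data were seen, are not reported here. The receptors, the gene lists and the tests were chosen with earlier results of these data known. The lists were other chemokine receptors, ligands, receptor signalling genes, pan-leukocyte genes, and markers of T, NK, B, dendritic, Kupffer, endothelial and stellate cells, monocytes, neutrophils, hepatocytes, red blood cells, pancreas and adipocytes with mesothelium. Promoter windows are from RefSeq (8 of 9 receptors matched; Ccr7 did not).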

Additional observations from a re-analysis of the deposited data

Results flagged for a closer look

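In 27 groups of 5 livers (9 receptors in 3 groups), 2 had a liver whose gap to the nearest other exceeded Dixon's 95% critical value of 0.71, and chance alone flags about 1 group in 20. Ccr1 in young WT 4 was at 0.0904 CPM, on 3 counts, below the next liver of its group at 0.172 CPM (gap over range 0.78). Ccr7 in old KO 2 was at 0.581 CPM, on 16 counts, above the next liver of its group at 0.279 CPM (gap over range 0.738). Young WT 6 was the highest young liver for 5 receptors without passing this limit for any of them.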

How the results depend on the processing

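Of 167 receptor log2 fold changes under the alternatives other than leaving out a library, 154 kept their direction and side of the threshold. With age 1 receptor was called under RLE scaling, upper quartile scaling and no filter on low counts, as Ccr2 fell just short there (log2 fold changes 1.05, 1.06 and 1.06, adjusted p 0.0505, 0.0507 and 0.0527). The count was 1 to 2 with 1 library left out. Leave-one-out values of Ccr2 were 0.92 to 1.46, past the threshold in 5 of 15 fits. Old KO against young WT gave 2 calls with no filter (Ccr1 joining Cx3cr1) and 1 to 3 with 1 library left out, where Ccr1 entered 11 fits and passed in all of them, and Ccr2 reached 1.08 without young WT 6.

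Titles share replicate numbers, and no pairing is stated for them. None of 9 same-numbered pairs had correlated deviations above 0.1 (-0.153 to 0.077), while old WT 10 and old KO 6, with different numbers, reached 0.355. These values cannot show whether same-numbered animals shared a litter, cage or batch. With the replicate block 0 receptors were called with age and 0 in old KO against young WT, where Cx3cr1 was at 1.22 (adjusted p 0.238) and 1.52 (adjusted p 0.0692) and Ccr2 with age at 0.76 (adjusted p 0.380). Small differences changed sign under the block, namely Cxcr2 (0.022) and Cxcr3 (-0.53) with age and Cxcr3 (0.54) and Cxcr4 (0.024) by genotype. They did under limma voom for Cxcr2 with age (0.012) and for Cx3cr1 (-0.10) and Cxcr3 (0.050) by genotype. With 1 library left out the ranges spanned 0 for Cxcr2 with age (-0.15 to 0.097), for Cx3cr1 (-0.14 to 0.36) and Cxcr3 (-0.54 to 0.031) by genotype, and in old KO against young WT for Cxcr2 (-0.012 to 0.24), Cxcr3 (-0.0020 to 0.27) and Cxcr6 (-0.52 to 0.092). No value of these receptors in these comparisons passed the threshold in those fits. The causes were not tested.

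Calls by genotype over all genes were 76 in the main fit, 305 with DESeq2, 23 with limma voom, 6 with the replicate block and 9 to 108 with 1 library left out. With age they were 2685, and 899 with the block. DESeq2 called 5 signalling genes instead of 1 and 5 pan-leukocyte genes instead of 0 by genotype, and 4 Kupffer cell markers instead of 1 with age. Depth limits Ccr1 and Ccr6 most, at 1 to 11 counts per library.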

Other observations

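Markers of other cell types, and of dendritic cells, were counted in the same comparisons. Beside them, 18.8% of all tested genes were called with age, 0.533% by genotype and 23.3% in old KO against young WT. Of 8 endothelial markers, 2 of sinusoidal endothelium (Stab2 and Lyve1) fell with age (median of the list -0.44), and the list summed to 181 to 339 CPM in young WT, 138 to 247 CPM in old WT and 176 to 204 CPM in old KO livers. Among 8 stellate cell and fibroblast markers, the collagen gene Col3a1 rose (1.01 on the log2 scale, adjusted p 0.0449) and Reln fell (-0.57, adjusted p 0.0348) with age. None of either list passed the threshold by genotype in edgeR or DESeq2, where none of 8 endothelial and none of 8 stellate markers had an unadjusted p under 0.05. Dendritic cell markers gave a rise of Itgax (1.67, adjusted p 0.00154) and a fall of Zbtb46 (-0.42, adjusted p 0.0116) with age among 8 tested, and none by genotype, where 1 had an unadjusted p under 0.05 and DESeq2 called none.

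Red blood cell genes, of which 6 were tested, had 5 higher in old KO than in young WT (Hba-a1, Hba-a2, Hbb-b1, Hbb-b2 and Alas2; median 1.71), with sums of 47.3 to 110 CPM in young WT, 79.8 to 165 CPM in old WT and 107 to 397 CPM in old KO livers. By genotype 0 of 6 were called by edgeR or DESeq2, while 6 of 6 were above old WT (median log2 difference 1.08) and 4 had an unadjusted p under 0.05, and with age 0 of 6 were called by either tool, 6 of 6 were above young WT (median 0.67) and 1 had an unadjusted p under 0.05. The adipocyte and mesothelial genes summed to 17.1 to 121 CPM in young WT, 6.19 to 14.4 CPM in old WT and 5.56 to 9.56 CPM in old KO livers. Only 4 of 8 were tested, and 3 of these were higher with age (median 0.50), while Cidec was called lower. In old KO against young WT 3 of 4 were higher (median 0.86), and of Cidec and Wt1 1 was called higher and 1 lower. Of 8 pancreas genes 1 was tested (Cela1), called higher in old KO than in young WT. Hepatocyte markers gave 2 falls with age among 7 tested (Apoa1 and Cps1) and 1 rise in old KO against young WT (Ttr). The part of these genes in the receptor values was not tested.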
